A study of Oryza sativa with 4 samples.

Results

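Paleas labelled Osmads6 mutant were set against paleas labelled Osmads32 mutant, across every gene whose level, averaged over the 4 genotypes of the study, reached 1 FPKM. FPKM is the number of fragments scaled by transcript length and sequencing depth, so levels of different genes can be set side by side per length. The filter kept 20675 of the 55986 genes in the deposited table, and it used the level of a gene over all 4 genotypes, not the difference between the mutants.

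The palea and the lemma are the pair of bracts that enclose the flower of rice and later form the hull of the grain. The palea differs from the lemma in its smooth, thin margins, by which the lemma clasps it. OsMADS6 and OsMADS32 encode transcription factors of the MADS-box family, whose members act in combinations that set the identity of floral organs. OsMADS6 belongs to the AGL6-like clade and is known for the identity of the palea and for the determinacy of the floral meristem. OsMADS32 belongs to a clade known from monocots, and its loss is known to give flowers with chimeric organs. Known mutants of both genes are changed in the organs inside the hull, namely lodicules, stamens and carpel, as well as in the hull itself.

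Palea messenger RNA from 4 genotypes of rice grown in a paddy field was sequenced in bulk. The Osmads6 sample is a line with an inserted Tos17 retrotransposon in the Nipponbare background. The Osmads32 sample is a line with a T-DNA insertion in the AF36 background. A deletion line labelled rep1 and a wild type, both given only as japonica, served in the expression filter and as further levels. The labels give neither the allele number nor the stage of the paleas, and all plants shared the field. Because each mutant line came in a background of its own, genotype and background cannot be told apart in any value below. GEO lists 1 sample per genotype and the table holds 2 columns for each, which were treated as 2 runs of that sample. With n = 1 there was no test and no p-value, and the 2 values given for a library are its runs. Nothing in the labels says whether the runs came from separate plants.

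Facts of the whole series bear on how the contrast can be read. Reads recovered from the FPKM steps are known for each gene only up to a factor. They summed to 36215500 and 39867408 in the Osmads6-labelled runs, and to 43196918 and 42597728 in the Osmads32-labelled runs. These sums are not read totals. Runs of the same library were at least 2-fold apart in 77 genes for Osmads6 and in 128 genes for Osmads32, against 477 genes in the library labelled wild type. OsMADS6 (LOC_Os02g45770) stood at 124 and 129.8 FPKM in the Osmads6-labelled runs and at 257 and 267 FPKM in the Osmads32-labelled runs, 2.06-fold lower on the means. It stood at 826 and 858 FPKM in the rep1-labelled runs and at 12.5 and 14.4 FPKM in the runs labelled wild type, where it was lowest. OsMADS32 (LOC_Os01g52680) stood at 14.6 and 15.3 FPKM in the Osmads6-labelled runs and at 8.69 and 7.95 FPKM in the Osmads32-labelled runs, 1.79-fold higher in the Osmads6-labelled library. It stood at 3.11 and 2.44 FPKM in the rep1-labelled runs, where it was lowest, and at 6.63 and 7.75 FPKM in the runs labelled wild type. Each targeted gene was thus lower in its own labelled mutant than in the other mutant, but neither was lowest of the 4 libraries under its own label, and both were lower under the wild type label than in the mutant named for them. Insertion lines can still transcribe the gene, and the table does not show which side of an insertion was read. REP1, a TCP-family gene of palea development, had 4 and 6 reads in the Osmads6-labelled runs and 2 and 4 reads in the Osmads32-labelled runs, too few to be measured. Libraries are therefore called by their labels throughout, and mutant means a library so labelled. Whether the Osmads6 and wild type labels were exchanged was not tested. Results are also given with the columns labelled wild type put in place of the Osmads6-labelled ones, which is called the exchange below.

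The labelled tissue was checked against marker genes. Hull genes OsMADS1, OsMADS6, OsMADS14 and OsMADS15 summed to 739 and 722 FPKM in the Osmads6-labelled runs and 756 and 818 FPKM in the Osmads32-labelled runs. OsMADS6 is the gene targeted in the Osmads6 line, so this sum is a weak check of the tissue. It had 124 and 129.8 FPKM in the Osmads6-labelled runs and 257 and 267 FPKM in the Osmads32-labelled runs. OsMADS1, OsMADS14 and OsMADS15 went the other way, with log2 ratios of 0.18, 0.15 and 0.32. Markers of organs other than the palea were also read in both libraries, and their summed levels were lower in the Osmads6-labelled library. For stamen and lodicule (OsMADS2, OsMADS4 and OsMADS16) the sums were 52.7 and 48.1 FPKM in the Osmads6-labelled runs and 137 and 131 FPKM in the Osmads32-labelled runs, with 3 of 3 genes at least 2-fold lower. The 5 pistil and ovule markers (DL and the C and D class MADS-box genes) summed to 23.5 and 18.8 FPKM in the Osmads6-labelled runs. They summed to 87 and 92.4 FPKM in the Osmads32-labelled runs, and the 4 that passed the filter were all lower. Most of this sum was DL, at 21.6 and 17.6 FPKM in the Osmads6-labelled runs and 53.7 and 57.4 FPKM in the Osmads32-labelled runs. The pistil and ovule sums were 26.9 and 28.6 FPKM under the rep1 label and 29.6 and 20.2 FPKM under the wild type label. For this group the Osmads32-labelled library was thus the one apart. The 4 meristem markers, all class I KNOX genes, summed to 11.8 and 13.7 FPKM in the Osmads6-labelled runs, against 45.6 and 36 FPKM in the Osmads32-labelled runs. Of 3 measured, 2 were lower, and the remaining one had a log2 ratio of 0.17. Most of this sum was OSH43, at 9.02 and 10.2 FPKM in the Osmads6-labelled runs and 40.9 and 32 FPKM in the Osmads32-labelled runs. The 11 anther and tapetum markers summed to 44.5 and 45.6 FPKM in the Osmads6-labelled runs, with RTS at 0. They summed to 207 and 239 FPKM in the Osmads32-labelled runs, with none at 0. Most of the Osmads32-labelled sum was RTS and OsC6, at means of 91.1 and 73.5 FPKM. Of the 10 measured, 4 were lower and 3 higher. For stamen and lodicule, meristem, and anther and tapetum, the Osmads6-labelled sums were the lowest of the 4 libraries. These are differences between bulk samples, in which fewer cells of a type and less RNA per cell cannot be told apart. Their part in the results below was not tested.

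Differences between the mutants were spread over a minority of genes. On the log2((FPKM + 1)/(FPKM + 1)) scale, which understates low genes and is used below for log2 ratios and counts, 14301 genes (69.2%) lay within 1.5-fold. A fold given for a single gene is the plain ratio of mean FPKM. At least 2-fold higher in the Osmads6-labelled library were 1573 genes, 7.61% of those measured. Lower by at least 2-fold were 1236 genes (5.98%), and 13.6% of genes differed in either direction. These shares stand beside each list count below, and in a short list a single call says little about the family. At 4-fold, 358 genes were higher (1.73%) and 184 lower (0.89%), 2.62% either way, and at 16-fold the counts were 23 and 11. All genes had a median log2 ratio of 0.03, with the middle 90% between -1.10 and 1.26. Under the exchange, 690 genes (3.34%) were higher and 375 (1.81%) lower.

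The means of the 4 libraries were also ranked at these genes, with any margin counted. Of the 1573 higher genes, the Osmads6-labelled library was the highest of 4 in 1455 (92.5%), while the Osmads32-labelled library was the lowest of 4 in 540 (34.3%). Of the 1236 lower genes, the Osmads6-labelled library was the lowest of 4 in 1045 (84.5%), and the Osmads32-labelled library was the highest in 470 (38%). Over all 20675 genes the Osmads6-labelled library was highest in 35.6% and lowest in 29.2%, and the Osmads32-labelled library highest in 18.4% and lowest in 17.5%. Genes picked for a difference between the mutants favour these ends of the ranking. The shares over all genes are therefore not a like-for-like baseline. The plot of all genes shows where the gene groups described next lie in this cloud.

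**Figure D1:**
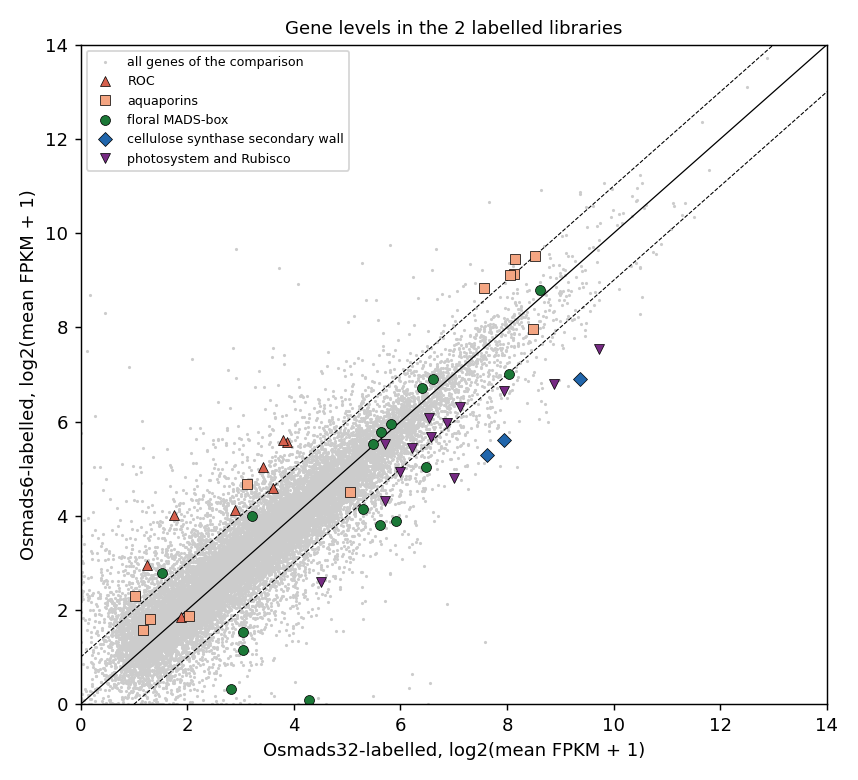
Each point is a gene, with log2(mean FPKM + 1) in the Osmads32-labelled library on the horizontal axis and in the Osmads6-labelled library on the vertical axis (20675 genes, means of 2 runs). The solid line marks equal levels and the dashed lines 2-fold; 6 of 8 ROC and 6 of 12 aquaporin genes lie above the upper line, and 3 of 3 secondary-wall cellulose synthases below the lower one.

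Floral MADS-box genes of the inner organs were lower in the Osmads6-labelled library and those of the hull, OsMADS6 excepted, were close to level. Past 2-fold, 9 of the 17 measured floral MADS-box genes were lower and 1 was higher, and their median log2 ratio was -1.04 beside 0.03 over the whole table. Under the exchange the counts were 4 lower and 1 higher and the median was -0.51. The B class, which gives lodicules and stamens their identity, was lower in 3 of 3 members. OsMADS4 had 2.09 and 1.67 FPKM in the Osmads6-labelled runs and 8.23 and 6.19 FPKM in the Osmads32-labelled runs (3.84-fold lower). OsMADS16 had 32.5 and 31 FPKM in the Osmads6-labelled runs and 89.4 and 87.5 FPKM in the Osmads32-labelled runs (2.78-fold lower), and OsMADS2, the other PISTILLATA-like gene beside OsMADS4, was 2.29-fold lower. In the rep1-labelled runs OsMADS16 reached 109.9 and 94.9 FPKM and in the runs labelled wild type 63.2 and 51.2 FPKM, so the Osmads6-labelled library was the lowest of the 4 for it.

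The C class, which acts in stamens and carpel, was lower in 2 of 2 members. OsMADS58 had 0.35 and 0.16 FPKM in the Osmads6-labelled runs and 6 and 6.11 FPKM in the Osmads32-labelled runs. In this gene it was the Osmads32-labelled library that stood apart, since the rep1-labelled runs had 1.73 and 1.13 FPKM and the runs labelled wild type 0.421 and 0.268 FPKM. OsMADS3, the other C-class gene, had 1.4 and 1.03 FPKM in the Osmads6-labelled runs and 7.81 and 6.79 FPKM in the Osmads32-labelled runs. The D-class gene of ovule identity, OsMADS13, had 3 and 0 reads in the Osmads6-labelled runs and 499 and 551 reads in the Osmads32-labelled runs. For OsMADS3 and OsMADS13 the Osmads6-labelled runs lay below all the others, and OsMADS13 was also low in the runs labelled wild type, at 0.423 and 0.691 FPKM.

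SEPALLATA-like genes, which are cofactors of the other classes, went in different directions. OsMADS8, which with OsMADS7 is known for inner-organ identity, had 12.4 and 13.5 FPKM in the Osmads6-labelled runs and 48.2 and 48.1 FPKM in the Osmads32-labelled runs, 3.73-fold lower, and OsMADS7 was 4.33-fold lower. OsMADS34, known for the change from inflorescence branch to spikelet, had 5.26 and 6.5 FPKM in the Osmads6-labelled runs and 2.11 and 1.64 FPKM in the Osmads32-labelled runs and was the 1 floral MADS-box gene at least 2-fold higher. OsMADS1, a gene of lemma and palea identity, had 454 and 436 FPKM in the Osmads6-labelled runs and 373 and 414 FPKM in the Osmads32-labelled runs, a log2 ratio of 0.18. For OsMADS5 the runs of the 2 mutants overlapped, at 43.1 and 46.7 FPKM in the Osmads6-labelled library and 47.7 and 39.8 FPKM in the Osmads32-labelled library. None of the 3 measured APETALA1/FRUITFULL-like genes was past 2-fold. The largest ratio among them was that of OsMADS15, known for palea development, with 104 and 105 FPKM in the Osmads6-labelled runs and 80.6 and 86.2 FPKM in the Osmads32-labelled runs, and OsMADS14 and OsMADS18 had log2 ratios of 0.15 and 0.11. OsMADS17, the AGL6-like paralog of OsMADS6, had a log2 ratio of 0.30. Paralogs of the MADS-box family can share reads, which makes single values less certain. Of 5 measured SVP and SOC1-like MADS-box genes, 1 was lower and 0 higher, beside 5.98% and 7.61% of all genes. Their median was -0.36 (under the exchange 0 and 0, median -0.04). The lower one was OsMADS50, a promoter of flowering, at 2.71 and 2.31 FPKM in the Osmads6-labelled runs and 6.77 and 5.92 FPKM in the Osmads32-labelled runs. Without the second Osmads6-labelled run or without the first Osmads32-labelled run its log2 ratio was -0.98, inside 2-fold.

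**Figure D2:**
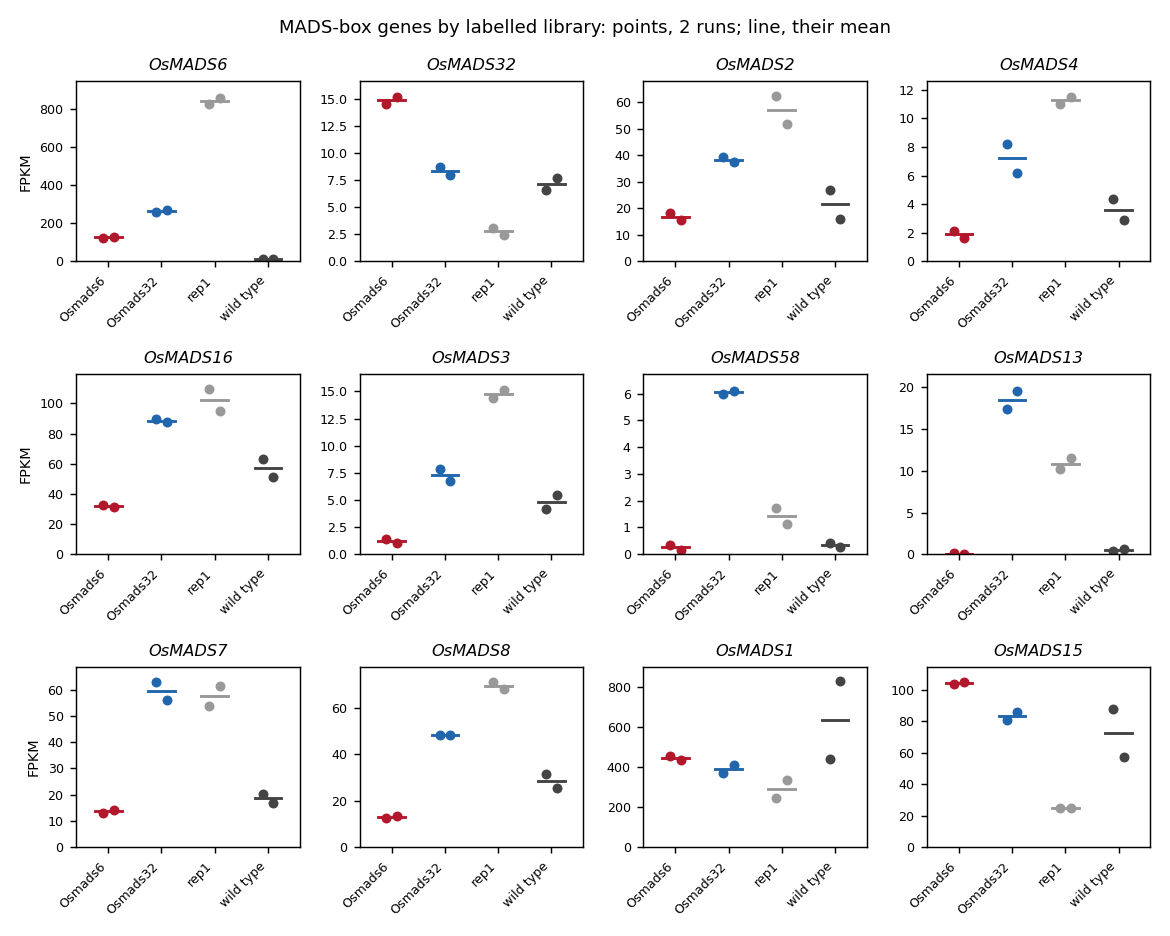
FPKM (vertical axes, each from 0) of 12 MADS-box genes in the 4 labelled libraries (horizontal axes), with points for the 2 runs and a line for their mean. The B, C and D class genes, OsMADS7 and OsMADS8 are lower in the Osmads6-labelled than in the Osmads32-labelled library, OsMADS1 and OsMADS15 are not, and OsMADS6 is lowest in the library labelled wild type.

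YABBY genes, which act in the abaxial side and the growth of lateral organs, split. Of 7 measured, 3 were higher and 1 lower, with a median log2 ratio of -0.06, and under the exchange the counts were 0 and 1 (median 0.05). The largest ratio was that of YAB5 (TONGARI-BOUSHI1, known for spikelet organ development), which had 11 and 11 FPKM in the Osmads6-labelled runs and 0.919 and 0.504 FPKM in the Osmads32-labelled runs, 15.4-fold higher. It stood at 0.137 and 0 FPKM in the rep1-labelled runs and 2.41 and 2.23 FPKM in the runs labelled wild type, so the Osmads6-labelled library was the highest of the 4. YAB3 had 22.3 and 25.7 FPKM in the Osmads6-labelled runs and 8.97 and 6.71 FPKM in the Osmads32-labelled runs, and YAB4 was 3.3-fold higher. DL, the YABBY gene of carpel identity and of the midrib, was the lower one, at 21.6 and 17.6 FPKM in the Osmads6-labelled runs and 53.7 and 57.4 FPKM in the Osmads32-labelled runs. Its level in the Osmads6-labelled library overlapped that labelled wild type (24.5 and 13.6 FPKM). YAB1 and YAB6, with log2 ratios of -0.61 and -0.25, were inside 2-fold, as was YAB2, whose runs overlapped.

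Class III homeodomain-leucine zipper genes, which mark the adaxial side of lateral organs and the vasculature, were higher in 2 of 4 members (HB1 and HB3), 0 were lower, and the median log2 ratio was 1.11. Under the exchange 1 was higher and the median was 0.77. HB3 had 16 and 15.9 FPKM in the Osmads6-labelled runs and 5.2 and 5.96 FPKM in the Osmads32-labelled runs, and HB1 was 2.54-fold higher. HB4 had a ratio of means of 2.01 and a log2 ratio of 0.93 with the pseudocount, just inside 2-fold, and HB2 was level at 0.12. Class I KNOX genes, which keep meristem cells undetermined, were lower in 2 of 3 measured members, with a median of -1.09 (under the exchange 0 of 3, median -0.77). With so few members the class I KNOX median depended on the pseudocount, at -1.91 with 0.1 FPKM and -0.32 with 5 FPKM, and it was -0.43 without a filter. OSH43 had 9.02 and 10.2 FPKM in the Osmads6-labelled runs and 40.9 and 32 FPKM in the Osmads32-labelled runs, and reached 73.7 and 72.5 FPKM in the rep1-labelled runs. The other lower gene was OSH1, at 0.129 and 0.108 FPKM in the Osmads6-labelled runs and 1.74 and 1 FPKM in the Osmads32-labelled runs, with a log2 ratio of -1.09 that was -0.84 without the first Osmads32-labelled run. Among 4 measured regulators of floral organs and the spikelet, 1 was higher and 1 lower, with a median of 0.11 (under the exchange 0 and 0, median -0.55). With the 2 checked symbols only, 1 was higher and 0 lower, and the median was 0.81. SL1, a zinc-finger gene known to act on B-class genes in stamens and lodicules, was higher, at 21.1 and 22.8 FPKM in the Osmads6-labelled runs and 7.36 and 7.06 FPKM in the Osmads32-labelled runs. The B-class genes themselves were lower, as given above.

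Most ROC genes were higher in the Osmads6-labelled library. These genes encode class IV homeodomain-leucine zipper proteins, whose family is known for expression in the outermost cell layer. Of 8 ROC genes, 6 were at least 2-fold higher, 0 were lower, and the median log2 ratio was 1.65 against 0.03 for all genes. ROC8 had 14.1 and 16.2 FPKM in the Osmads6-labelled runs and 1.29 and 3.43 FPKM in the Osmads32-labelled runs, 6.42-fold higher. ROC6 had 45.9 and 49.4 FPKM in the Osmads6-labelled runs and 11.8 and 14.2 FPKM in the Osmads32-labelled runs, 3.67-fold higher. ROC5, known for the size and number of bulliform cells of the leaf, had 43.8 and 48.6 FPKM in the Osmads6-labelled runs and 14.5 and 12.7 FPKM in the Osmads32-labelled runs. In all 3 genes the Osmads6-labelled runs lay above every run of the other libraries, where ROC5 had 5.97 and 5.13 FPKM under the rep1 label and 19.97 and 19 FPKM under the wild type label. ROC7, ROC2 and ROC3 were 4.97-fold, 3.28-fold and 2.55-fold higher. ROC1 was just inside the threshold, with a log2 ratio of 0.97, and ROC4 was level, with overlapping runs. Under the exchange none of the 8 was past 2-fold and the median was -0.06.

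Genes of auxin transport and response differed in some members. Both measured PIN auxin efflux carriers were higher, with a median of 1.68 (under the exchange 0 of 2, median -0.12). PIN1a had 61.2 and 64.1 FPKM in the Osmads6-labelled runs and 17.1 and 18.3 FPKM in the Osmads32-labelled runs, and PIN3a had 29.4 and 30.3 FPKM in the Osmads6-labelled runs and 9.72 and 8.75 FPKM in the Osmads32-labelled runs. The other 5 PIN genes listed were below the filter, and with no filter the PIN median was 0.11. Of 22 measured auxin response factors, 3 were higher and 0 lower, beside 7.61% and 5.98% of all genes. Their median was 0.08, close to that of all genes (under the exchange 2 and 2, median -0.08). ARF16 was 4.42-fold, ARF17 3.12-fold and ARF25 2.33-fold higher. ARF17 had 34.8 and 31 FPKM in the Osmads6-labelled runs, 9.96 and 11.1 FPKM in the Osmads32-labelled runs, 4.93 and 5.36 FPKM in the rep1-labelled runs and 35.9 and 49.1 FPKM in the runs labelled wild type. The Osmads6-labelled runs and those labelled wild type were the high ones.

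Genes of organ growth were for the most part inside 2-fold. Of 13 measured SPL transcription factors, which act in branching and grain shape, 3 were higher and 0 lower, with a median of 0.42 (under the exchange 1 and 0, median 0.09). SPL16, known for grain width, had 34.4 and 36.6 FPKM in the Osmads6-labelled runs and 10.5 and 13.7 FPKM in the Osmads32-labelled runs, and it was lower in the others, at 1.14 and 0.96 FPKM under the rep1 label and 7.21 and 6.64 FPKM under the wild type label. SPL14, known for panicle branching, was 3.64-fold higher. SPL2 was 2.72-fold higher, with 24.08 and 25 FPKM in the Osmads6-labelled runs and 8.54 and 9.48 FPKM in the Osmads32-labelled runs. It had 22.7 and 23.8 FPKM under the rep1 label and 20.7 and 32.3 FPKM under the wild type label, so here the Osmads32-labelled library was the low one. In the grain and hull size list, 3 of 10 measured were higher and 0 lower (median 0.47, under the exchange 1 and 0, median -0.06). With 6 checked symbols only, 1 was higher and the median was 0.06. Of 7 growth-regulating factors 0 were higher and 1 lower, beside 7.61% and 5.98% of all genes. Their median was -0.35 (under the exchange 0 and 2, median -0.68). The lower one was GRF3, at 8.32 and 6.98 FPKM in the Osmads6-labelled runs and 31.6 and 32.7 FPKM in the Osmads32-labelled runs. It had 19.8 and 21.6 FPKM under the rep1 label and 9.29 and 11 FPKM under the wild type label. For GRF3 the Osmads32-labelled library was thus the highest. None of 6 cell cycle genes was past 2-fold, with a median of 0.57 (under the exchange -0.16), and the most abundant, CDKA;1, had a log2 ratio of -0.19. In 2 of them the ratio of means was 2.21 and 2.15. The pseudocount kept these inside 2-fold, at log2 ratios of 0.84 and 0.90.

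Genes of cell expansion differed more. Of 14 measured expansins, proteins that loosen the wall, 5 were higher and 2 lower, with a median of 0.46 (under the exchange 1 and 2, median -0.31). EXPB16 had 46.3 and 50.5 FPKM in the Osmads6-labelled runs and 3.39 and 3.61 FPKM in the Osmads32-labelled runs, 13.8-fold higher. EXPA6 had 13.7 and 14 FPKM in the Osmads6-labelled runs and 0.93 and 0.908 FPKM in the Osmads32-labelled runs, 15.1-fold higher. EXPA7, an abundant one, had 169.9 and 162 FPKM in the Osmads6-labelled runs and 57 and 57.3 FPKM in the Osmads32-labelled runs, and EXPA5 and EXPB7 were 3.8-fold and 3.63-fold higher. In these 5 genes the Osmads6-labelled runs were the highest of all 8. On the lower side EXPA2 had 24.3 and 21.2 FPKM in the Osmads6-labelled runs and 141 and 165 FPKM in the Osmads32-labelled runs. It had 23.1 and 21.6 FPKM under the rep1 label and 89.5 and 70.1 FPKM under the wild type label. EXPB3 was 2.33-fold lower. Of 12 measured aquaporins, the channels through which water crosses the plasma membrane and the tonoplast, 6 were higher and 0 lower, with a median of 1.0 (under the exchange 2 and 0, median 0.18). PIP2;6 had 681 and 719 FPKM in the Osmads6-labelled runs and 285 and 280.1 FPKM in the Osmads32-labelled runs, PIP2;1 was 2.42-fold and PIP2;3 3.17-fold higher. Reads of expansin and aquaporin paralogs can also be shared.

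Cellulose synthase genes of the secondary cell wall were lower in the Osmads6-labelled library, and those of the primary wall were mostly level. The secondary-wall cellulose synthases CESA4, CESA7 and CESA9 were lower in 3 of 3, with a median log2 ratio of -2.33 (under the exchange 0 of 3, median -0.44). CESA4 had 117 and 121 FPKM in the Osmads6-labelled runs and 629 and 690.1 FPKM in the Osmads32-labelled runs, 5.56-fold lower, and CESA7 and CESA9 were 5.09-fold and 5.13-fold lower. Of 6 primary-wall cellulose synthases, 1 was lower and 0 higher, with a median of -0.20 (under the exchange 0 and 0, median -0.07). That gene was CESA3, at 123 and 123 FPKM in the Osmads6-labelled runs and 286 and 303 FPKM in the Osmads32-labelled runs. The list of lignin synthesis and secondary wall genes had 8 measured members, of which 4 were lower and 0 higher, with a median of -1.14 (under the exchange 0 and 0, median -0.22). COMT1, an O-methyltransferase of lignin synthesis, had 392 and 406 FPKM in the Osmads6-labelled runs and 1516 and 1429.9 FPKM in the Osmads32-labelled runs, 3.69-fold lower. CAD2, a cinnamyl alcohol dehydrogenase, and 4CL3, a 4-coumarate:CoA ligase, were 3.12-fold and 3.13-fold lower. BC1, a COBRA-like protein of cellulose assembly, had 10.1 and 9.58 FPKM in the Osmads6-labelled runs and 25.3 and 36.9 FPKM in the Osmads32-labelled runs.

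Other wall genes went in both directions. Of 5 measured genes in a further list of lignin, xylan and mixed-linkage glucan synthesis, 2 were lower and 1 higher, with a median of -0.61 (under the exchange 0 and 0, median -0.18). IRX14, a glycosyltransferase of xylan synthesis, had 118 and 111 FPKM in the Osmads6-labelled runs and 348 and 326 FPKM in the Osmads32-labelled runs, and 4CL1 was 4.49-fold lower. CSLF6, the synthase of mixed-linkage glucan in grass walls, was the higher one, at 153 and 160.2 FPKM in the Osmads6-labelled runs and 61.2 and 76.9 FPKM in the Osmads32-labelled runs. LSI6, a silicon transporter and the only one of 3 above the filter, was 3.58-fold lower (log2 ratio -1.79, under the exchange -0.76). It had 21.9 and 22 FPKM in the Osmads6-labelled runs and 74.7 and 82.2 FPKM in the Osmads32-labelled runs. It was lowest under the rep1 label, at 2.71 and 2.2 FPKM, and had 49.7 and 42.1 FPKM under the wild type label. For the 3 cellulose synthases and COMT1 the order of the libraries was the same, with the Osmads6-labelled one lowest and the rep1-labelled one highest; COMT1 stood at 2889 and 2972 FPKM in the rep1-labelled runs and 1134 and 1125 FPKM in the runs labelled wild type.

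**Figure D3:**
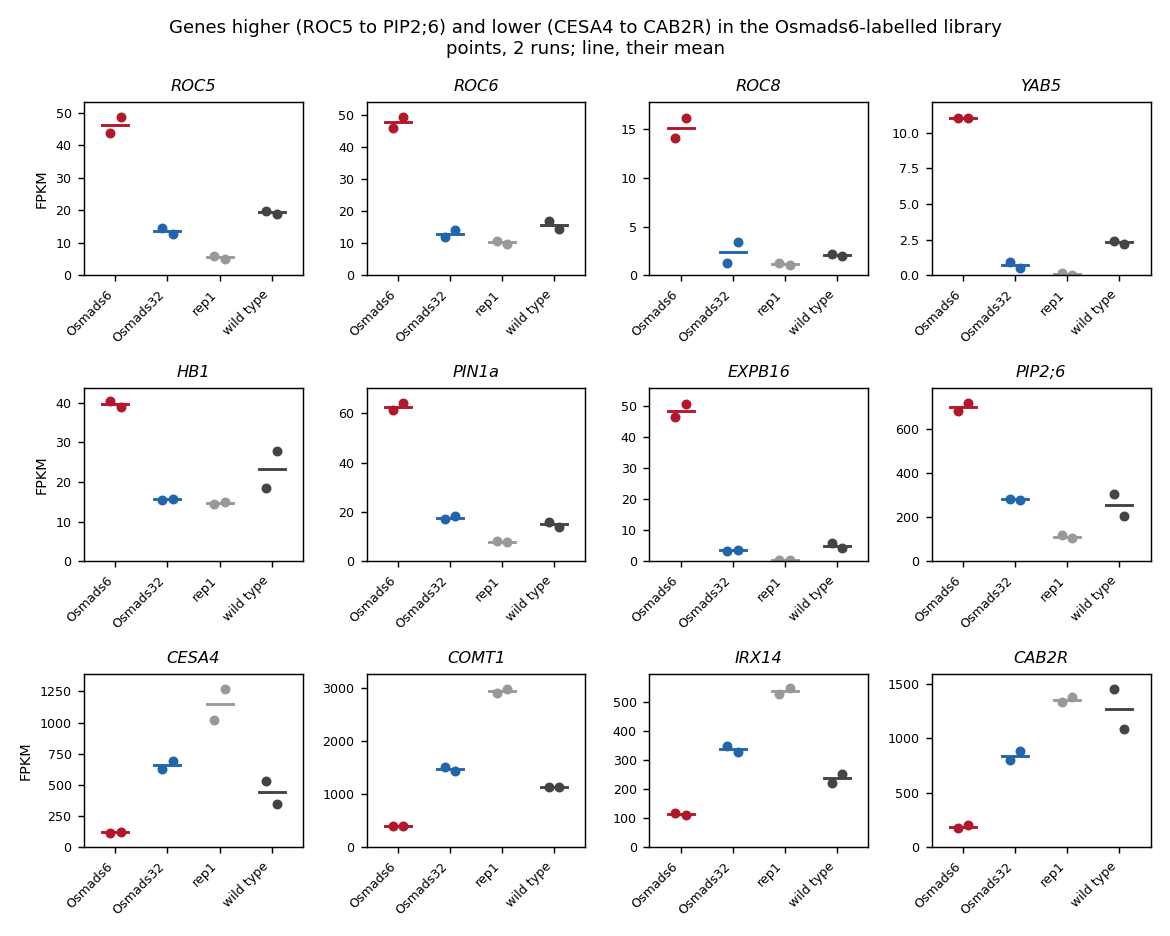
FPKM (vertical axes, each from 0) of 12 genes in the 4 labelled libraries (horizontal axes), with points for the 2 runs and a line for their mean. In the upper 8 panels the Osmads6-labelled runs are the highest, with ROC5 at 43.8 and 48.6 FPKM against 14.5 and 12.7 FPKM in the Osmads32-labelled runs; in the lower 4 (CESA4 to CAB2R) they are the lowest.

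Some genes of the green tissue were lower and none of those listed was past 2-fold higher. The 3 green tissue markers CAB1R, CAB2R and RCA summed to 326 and 375 FPKM in the Osmads6-labelled runs and 1146 and 1209 FPKM in the Osmads32-labelled runs. Of 13 measured photosystem and Rubisco genes, 7 were lower and 0 higher, with a median log2 ratio of -1.07, and of 4 checked symbols 3 were lower. CAB2R, a light-harvesting protein, had 172 and 199.7 FPKM in the Osmads6-labelled runs and 801 and 881 FPKM in the Osmads32-labelled runs, and CAB1R was 2.48-fold lower. RBCS2, a small subunit of Rubisco, had 20.6 and 17.3 FPKM in the Osmads6-labelled runs and 53.7 and 49 FPKM in the Osmads32-labelled runs. Of 9 genes of chlorophyll synthesis and GLK factors, 2 were lower and 0 higher, with a median of -0.53. PORA, a protochlorophyllide reductase, was 2.1-fold lower and CHLI, a subunit of magnesium chelatase, 2.07-fold lower, though without the second Osmads6-labelled run the log2 ratio of CHLI was -0.99. GLK1, a transcription factor known to act on photosystem genes, went the other way, at 2.39 and 2.93 FPKM in the Osmads6-labelled runs and 1.29 and 1.59 FPKM in the Osmads32-labelled runs (log2 ratio 0.58), and GLK2 was level. Under the exchange the medians of both lists were above 0: 5 of 13 photosystem and Rubisco genes were higher with a median of 0.74, and 5 of 9 chlorophyll genes were higher with a median of 1.02. For CAB2R the Osmads32-labelled library lay between the Osmads6-labelled one and that labelled wild type, which had 1450.4 and 1087 FPKM.

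Anther genes differed in both directions. Of 14 measured anther and tapetum genes, 4 were higher and 4 lower, with a median of -0.41, or 4 and 3 with a median of 0.61 for the 11 checked symbols. Under the exchange 0 were past 2-fold either way, with a median of 0.25. RTS, OsC6 and RAFTIN1, known from the tapetum and the pollen wall, were lowest of the 4 in the Osmads6-labelled library. RTS had 0 reads in both Osmads6-labelled runs and 83.9 and 98.3 FPKM in the Osmads32-labelled runs, at least 742-fold lower when 3 reads per run are taken as the floor. OsC6, a lipid transfer protein, had 0.831 and 0.271 FPKM in the Osmads6-labelled runs and 66.6 and 80.3 FPKM in the Osmads32-labelled runs, 133-fold lower. RAFTIN1 was 10.4-fold lower, at 1.93 and 1.14 FPKM in the Osmads6-labelled runs and 14.9 and 17 FPKM in the Osmads32-labelled runs.

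The 4 higher genes were regulators of anther development. TDR, a helix-loop-helix factor of the tapetum, had 4.07 and 4.92 FPKM in the Osmads6-labelled runs and 0.838 and 1.21 FPKM in the Osmads32-labelled runs. TIP2, a second such factor, had 2.08 and 2.47 FPKM in the Osmads6-labelled runs and 0.379 and 0.654 FPKM in the Osmads32-labelled runs, and its log2 ratio was 0.98 without the first Osmads32-labelled run. MSP1, a receptor kinase that limits the number of sporogenous cells, and GAMYB were 2.35-fold and 2.26-fold higher. OsC6 was read in both remaining libraries as well, at 80.5 and 78.5 FPKM under the rep1 label and 70.1 and 104 FPKM under the wild type label. TDR and MSP1 were highest in the Osmads6-labelled library, and MSP1 had 2.81 and 3.23 FPKM in the runs labelled wild type.

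Hormone genes other than those of auxin differed in few members, except for the JAZ repressors of jasmonate signalling. Of 8 JAZ (TIFY) genes, 4 were lower and 0 higher, with a median of -1.03, and under the exchange 5 were lower with a median of -1.27. This was the 1 list with 4 or more lower genes whose median was further below 0 under the exchange. TIFY11D had 74 and 63.5 FPKM in the Osmads6-labelled runs and 170.0 and 169 FPKM in the Osmads32-labelled runs, and it had 45.7 and 48 FPKM under the rep1 label and 74.7 and 59.98 FPKM under the wild type label. In this gene the Osmads32-labelled library was the one apart. TIFY10B, the most abundant, had 269.5 and 274 FPKM in the Osmads6-labelled runs and 741 and 694 FPKM in the Osmads32-labelled runs, and TIFY11C and TIFY10C were 2.42-fold and 2.37-fold lower. Of 10 gibberellin genes 1 was higher and 0 lower, beside 7.61% and 5.98% of all genes. Their median was 0.10 (under the exchange 2 and 0, median 0.25). That 1 gene had an unchecked symbol, and the checked member with the highest mean level, GID2, an F-box protein of gibberellin signalling, had a log2 ratio of -0.91. Of 6 brassinosteroid and cytokinin genes, 2 were lower and 0 higher (median -0.22), and under the exchange 1 was lower and 0 higher (median -0.32). D11, a cytochrome P450 of brassinosteroid synthesis, was 2.3-fold lower. LOG, which activates cytokinin, was 2.12-fold lower. Its log2 ratio was -0.85 without the first Osmads6-labelled run and -0.99 without the second Osmads32-labelled run. It had 11.6 and 15.5 FPKM in the Osmads6-labelled runs and 27.9 and 29.6 FPKM in the Osmads32-labelled runs. Under the rep1 label it had 6.37 and 8.94 FPKM and under the wild type label 6.66 and 10.1 FPKM. For LOG the Osmads32-labelled library was thus the high one.

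Heat shock genes had no common direction. Of 4 measured in the first list, 1 was higher and 1 lower (median 0.50), and of 9 small heat shock proteins and heat shock factors 4 were higher and 1 lower (median 0.89). HSFA2c, a heat shock factor, had 10.2 and 11.2 FPKM in the Osmads6-labelled runs and 2.57 and 2.56 FPKM in the Osmads32-labelled runs, 4.17-fold higher. HSP17.9A was 2.87-fold and HSP17.4 2.39-fold higher, the last with a log2 ratio of 0.91 without the first Osmads32-labelled run. The factors HSFB2b and HSFB2c were higher by log2 ratios of 1.08 and 1.07, which were 0.75 and 0.97 without the second Osmads6-labelled run, and HSFB2c was at 0.95 without the first Osmads32-labelled run. The adjacent genes HSP16.9A and HSP16.9B were lower, with HSP16.9B at 10.5 and 6.22 FPKM in the Osmads6-labelled runs and 72.5 and 77.6 FPKM in the Osmads32-labelled runs. Under the exchange 3 of 4 genes of the first list were higher (median 3.36), as were 6 of 9 of the second (median 1.97), and the library labelled wild type was high in them, with 194 and 154 FPKM of HSP17.4. The 4 leaf polarity and WOX genes were all inside 2-fold, with a median of 0.00 (under the exchange -0.15), and the most abundant, NAL1, had overlapping runs. No housekeeping gene was past 2-fold, with a median of -0.11 (under the exchange 0.08) and a log2 ratio of -0.21 for GAPDH. The plot of list members sets the 30 lists side by side.

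**Figure D4:**
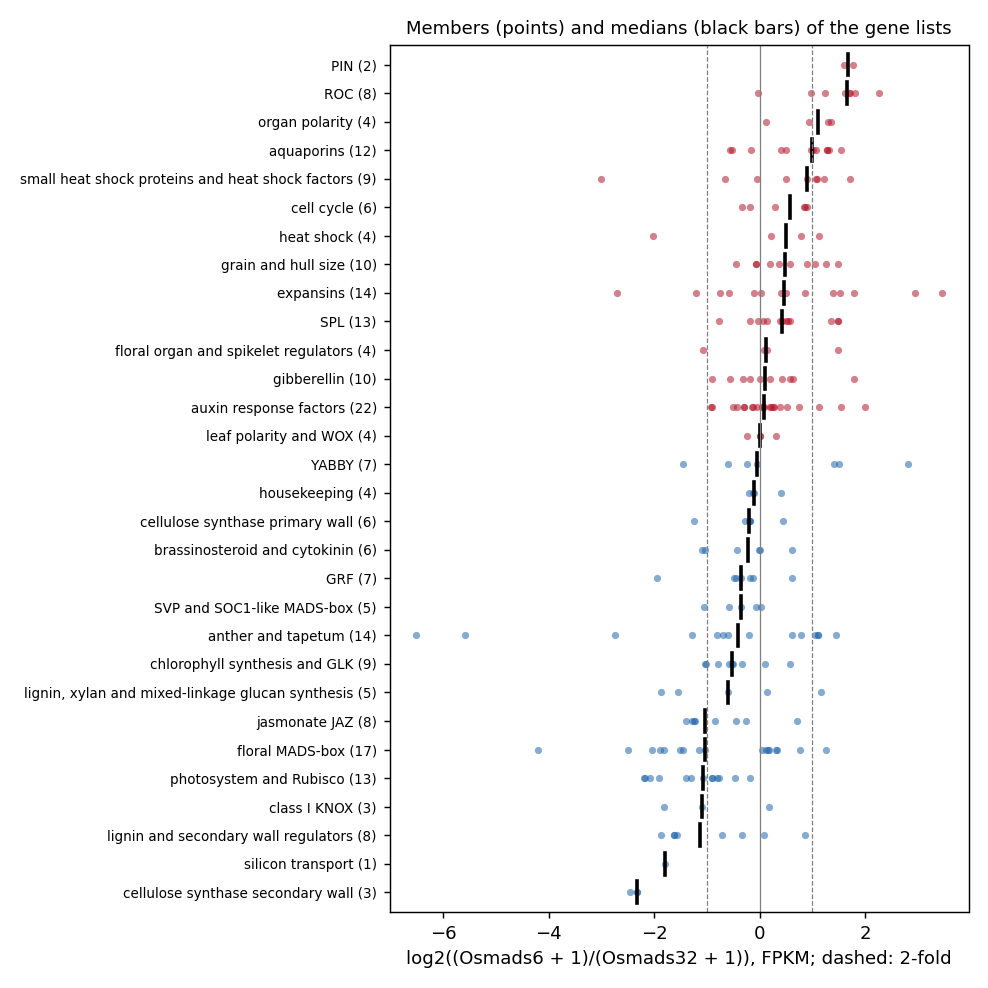
Log2 ratio of Osmads6-labelled over Osmads32-labelled FPKM (horizontal axis, pseudocount 1) for the measured members of 30 gene lists (rows, number measured in brackets), sorted by median. Points are genes, in red where the list's median is 0 or above and in blue where it is below 0, black bars are medians, and dashed lines mark 2-fold; medians run from 1.68 for PIN to -2.33 for secondary-wall cellulose synthases.

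A few genes were read in 1 mutant and hardly at all in the other. At least 5 FPKM in the Osmads6-labelled library with at most 3 reads in each Osmads32-labelled run was found for 17 genes, and 7 of these were also at or under 3 reads per run in both remaining libraries. The reverse, at least 5 FPKM in the Osmads32-labelled library with at most 3 reads in each Osmads6-labelled run, was found for 12 genes, among them RTS and OsMADS13. None of these 12 was at or under 3 reads per run in the rep1-labelled library, and none in the library labelled wild type. Under the exchange the total was 4 genes, against 29 with the labels as deposited. Outside the lists the table gives no gene names. The largest ratio in the direction of Osmads6 was that of LOC_Os01g37000, with 419 and 399.7 FPKM in the Osmads6-labelled runs and 0 and 0.249 FPKM in the Osmads32-labelled runs, and 317 and 315 FPKM of LOC_Os08g08960 in the Osmads6-labelled runs stood against 0.235 and 0.527 FPKM in the Osmads32-labelled runs. Both were under 5 FPKM in the other libraries. In the other direction LOC_Os05g33150 had 1.02 and 1.98 FPKM in the Osmads6-labelled runs and 171 and 209 FPKM in the Osmads32-labelled runs, and LOC_Os01g41140 had 0.18 and 0.547 FPKM in the Osmads6-labelled runs and 87.9 and 97.8 FPKM in the Osmads32-labelled runs.

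The shares of higher and lower genes differed between classes of gene level. Among 6798 genes with a mean of 1 to 5 FPKM, 9.5% were higher in the Osmads6-labelled library and 4.18% lower. Among 965 genes at 100 FPKM and above, 6.01% were higher and 17.2% lower, among them CESA4, COMT1, IRX14 and CAB2R. In the classes between, from 5 to 20 and from 20 to 100 FPKM, the higher shares were 7.16% and 6.04% and the lower shares 5.16% and 7.58%. The level was the mean over the 4 genotypes, of which both mutants are part, so level and difference are not independent. A gene apart in 1 library only also shifts its own mean. How far this shaped the shares was not tested.

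Called genes were found on every chromosome. The share of higher genes ran from 5.5% on chromosome 12 to 9% on chromosome 9, and the share of lower genes from 4.21% on chromosome 2 to 7.01% on chromosome 11. Stretches of 3 or more neighbouring measured genes that were all past 2-fold in 1 direction numbered 31 on the higher side and 27 on the lower side, together 58. Those of 4 or more numbered 4 higher and 10 lower, and the 3 with 5 genes, on chromosomes 5, 7 and 9, were all lower in the Osmads6-labelled library. The numbers in their locus IDs spanned 12, 300 and 40. Whether neighbouring genes shared reads was not tested, so a stretch need not hold independent genes. Under the exchange 9 such stretches of 3 or more were found in all.

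**Figure D5:**
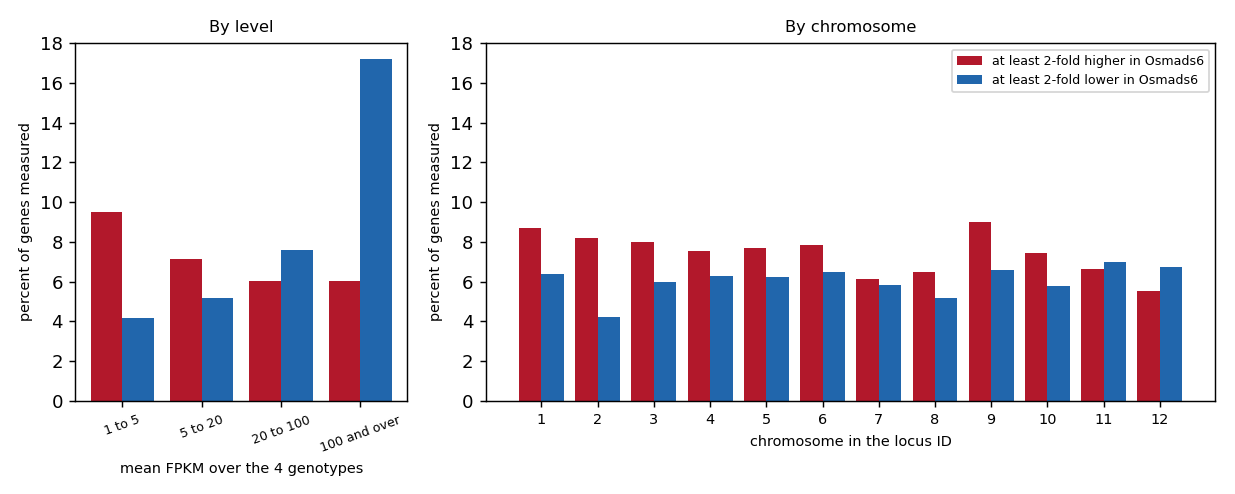
Percent of measured genes at least 2-fold higher (red) or lower (blue) in the Osmads6-labelled than in the Osmads32-labelled library, by mean FPKM over the 4 genotypes (left) and by chromosome of the locus ID (right). The lower share is largest, 17.2%, at 100 FPKM and above.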

How the data were processed

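The deposited table holds FPKM values made by the authors for 55986 LOC_Os genes in 8 columns, 2 per genotype, all of which were used. The genome build was IRGSP 1.0, per the submitters' processing notes, while aligner, counter and annotation are not stated in the sources used here. GEO lists 1 sample per genotype, so both columns were averaged as runs of it. The measure was log2((Osmads6 FPKM + 1)/(Osmads32 FPKM + 1)) for the 20675 genes that averaged 1 FPKM or more over 4 genotypes, called at 2-fold. A fold printed for a single gene divides mean FPKM by mean FPKM, with no pseudocount. No test was made. Tools were Python 3.11.15, numpy 2.4.6 and pandas 2.3.3.

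Whole reads were recovered from the FPKM steps within 0.02 reads for 44686 of 44713 genes above 0 (99.94%), up to a factor shared by the runs of a gene. The method was tested on simulated data. The 27 genes without whole reads made up 6.68% to 9.20% of each run's FPKM. Reads served for a sum per run, which is not a depth because of the factor per gene, and for a floor of 3 reads per run. The floor covers counting error only and rests on the same factor.

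The table pairs no names with IDs. Symbols were paired from known rice nomenclature and checked by chromosome and gene order (90% of the other pairs) against the RefSeq gene table of assembly ASM3414082v1. Of 200 pairs in 23 lists, 160 passed, 34 symbols were absent, 5 lay on another chromosome and 1 was out of order. Of 103 pairs in 7 added lists (auxin response factors, expansins, leaf polarity and WOX, lignin, xylan and glucan synthesis, small heat shock, brassinosteroid and cytokinin, aquaporins), written after values were seen, the 88 that passed were used. This check can miss a swap of close neighbours. The lists, and the contrast itself, were chosen with earlier results of these data known.

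Named were the targeted genes, every measured floral MADS-box and YABBY gene, and in other lists up to 3 genes each way past 2-fold with runs apart and at least 5 FPKM, or else the most abundant member. Only checked symbols were named, except OsMADS32 and REP1. ROC1, ROC2, ROC3, ROC4, ROC5, HB2, HB4, BC1, GLK1, GLK2, TDR, TIP2, EXPA7, EXPB7, OSH1, TIFY10C, HSFB2b and HSFB2c were named after their values were seen. Outside the lists, 2 locus IDs each way are given. Alternatives covered the pseudocount, filter, scaling, threshold, single runs, unchecked symbols and an exchange of the columns labelled wild type and Osmads6.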

Additional observations from a re-analysis of the deposited data

How the results depend on the processing

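Most limits come from the design: 1 sample per genotype, 1 background per mutant line, OsMADS6 and OsMADS32 levels that were not lowest under their own labels, and FPKM without names. Recovered reads are known only up to a factor per gene, so their sums of 36215500 to 43196918 per run are not depths. Genes near 3 reads per run cannot be ordered. No paired analysis was possible because each genotype is 1 GEO sample whose columns were taken as its runs.

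Without 1 run at a time, 1598 to 1711 genes were higher, 1278 to 1337 lower, and the median was 0.02 to 0.04. Median-of-ratios scaling gave 1545 higher and 1248 lower. A pseudocount of 5 FPKM gave 763 higher and 611 lower, fewer by construction, and one of 0.1 FPKM gave 2187 and 1738. A mean of at least 5 FPKM left 927 higher and 952 lower, so that lower genes were the more numerous, with a median of -0.01 and fewer genes measured, and no filter gave a median of 0.01. At 1.5-fold 3467 genes were higher and 2907 lower, and at 4-fold 358 and 184, with 1 stretch of neighbours in place of 58. Genes read in 1 mutant numbered 89 with 1 FPKM as the minimum and 19 with 0 reads as the maximum, in place of 29.

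When the wild type-labelled and Osmads6-labelled columns changed places, 690 genes were higher and 375 lower, 4 genes were read in 1 library and 9 stretches were found; the cause was not tested. Of 82 named genes past 2-fold, 17 stayed past it in the same direction and 22 had the opposite sign. Of 30 list medians, 12 changed sign. Those at or past 2-fold beforehand were ROC (-0.06), photosystem and Rubisco (0.74) and PIN (-0.12). The other 9 were those of chlorophyll and GLK (1.02), anther and tapetum (0.25), YABBY (0.05), housekeeping (0.08), floral organ regulators (-0.55), expansins (-0.31), cell cycle (-0.16), auxin response factors (-0.08) and grain and hull size (-0.06). Log2 ratios that turned below 0 were those of YAB3 (-0.25), SL1 (-0.49), ROC8 (-0.12), ROC2 (-0.14), ROC3 (-0.59), SPL16 (-0.73), MSP1 (-0.87), PIN1a (-0.23), PIN3a (-0.01), EXPA6 (-0.39), EXPA5 (-1.04), EXPA7 (-1.17), EXPB7 (-0.80) and PIP2;6 (-0.14). Those that turned above 0 were CAB2R (0.59), RBCS2 (0.03), CAB1R (1.59), PORA (2.08), RTS (0.35), OsC6 (0.24), RAFTIN1 (0.12) and TIFY10B (0.01). Under the other alternatives none of these 82 with a value changed sign. Values remained for 69 with the 5 FPKM filter and 80 with the filter on both mutants alone, and 57 stayed past 2-fold with a pseudocount of 5 FPKM. Of 20 named genes inside 2-fold, OsMADS5, GLK2 and ROC4 changed sign without 1 run.

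List medians moved by over 1.5 times or changed sign in 9 of 30 lists with a pseudocount of 5 FPKM, 4 with 0.1 FPKM, 14 with no filter, 5 with the 5 FPKM filter, 3 with checked symbols only and 4 to 6 without 1 run. Of 11 medians at or past 2-fold, 7 came inside it with a pseudocount of 5 FPKM. With no filter 6 did, those of floral MADS-box (-0.83), class I KNOX (-0.43), lignin and secondary wall (-0.71), silicon transport (-0.71), PIN (0.11) and aquaporins (0.50). Without 1 run 1 to 3 came inside 2-fold, and with median-of-ratios scaling 1 did. Without the first Osmads32-labelled run these were class I KNOX (-0.84), JAZ (-0.95) and aquaporins (0.92). Without the second it was photosystem and Rubisco (-0.96). None of the 11 changed sign except under the exchange.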
